A study of Mus musculus with 4 samples.

Results

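A group of 8 genes of cholesterol synthesis and its control was followed in B16-F10 cells, a mouse melanoma line. They were Hmgcs1, Idi1, Fdft1, Sqle, Lss, Dhcr7, Insig1 and Srebf2, chosen by name as a pathway group, and none of the 8 is itself an uptake gene. The array carried 11 probes with a RefSeq accession of these genes, out of 56605 probes and 23462 named genes in all. Lss had 3 probes, Fdft1 had 2 and the other 6 genes had 1 each. All 11 probes were well above background on all 4 arrays, so no member was lost to the filter on dim probes.

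Cells were grown in medium with 10% fetal bovine serum. They were kept for 24 h without recombinant protein (control, 0 ng/mL, 2 arrays) or with recombinant Cdh1 at 100 ng/mL (2 arrays). Cdh1 is the mouse symbol of E-cadherin, an adhesion protein of epithelia, and the labels give the recombinant protein by this symbol alone. The experiment was run as 2 independent sets, and a set consisted of a single control culture and a single Cdh1 culture. Total RNA was measured on 1-colour Agilent arrays. Levels are log2 signals relative to the 75th percentile of the array, so a level of 0 is that percentile. The share of spots well above background ran from 59.29% to 61.33%, with 0 saturated spots. Precision is limited by having only 4 arrays, and the smallest p that exact permutation (two-sided) allows for such groups is 0.333. The melanocyte genes Dct, Tyrp1, Pmel, Mlana and Sox10 were all well above background, with levels from 5.07 to 8.89. Of 5 leukocyte genes, Ptprc and Cd79a were not well above background on any array and Lyz2 was on 1. Itgam (3.22 to 3.44) and Cd3e (-1.08 to -0.78) were on all 4. Of 4 epithelial genes, Epcam and Krt18 were not on any array. Krt5 (-4.61 to -4.30) and Krt14 (-5.29 to -4.95) were on all 4, at low levels.

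Animal cells make cholesterol from acetyl-CoA through mevalonate, isoprenoid diphosphates, squalene and lanosterol. The transcription factor SREBP-2, the product of Srebf2, switches on the genes of this route when sterols are scarce. When sterols are plentiful, Insig proteins hold SREBP and its escort Scap in the endoplasmic reticulum, so the level of these transcripts is a familiar readout of sterol demand, and Srebf2 and Insig1 are themselves regulated in this loop.

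Promoters of 4 of these genes are shown because they hold the recognition letters of factors that act with SREBP. Whether these letters bear on the difference between the culture sets, described below, was not tested. RefSeq promoter windows of the build GRCm38.p6, from 250 bases before to 50 bases after the start, were available for 6 of the 8 genes. Capitals mark matches, on either strand, to TCACNCCAC, a sterol response motif, to CCAAT, the NF-Y motif, or to GGGCGG, the core of an Sp1 site. These motifs share no matched base in the windows shown. All are on the plus strand, at chr13:119690101-119690400 for Hmgcs1, chr5:28071162-28071461 for Insig1, chr10:76531355-76531654 for Lss and chr7:143829964-143830263 for Dhcr7. Of the 3 start sites listed for Dhcr7, the one with CCAAT matches is printed.

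Hmgcs1: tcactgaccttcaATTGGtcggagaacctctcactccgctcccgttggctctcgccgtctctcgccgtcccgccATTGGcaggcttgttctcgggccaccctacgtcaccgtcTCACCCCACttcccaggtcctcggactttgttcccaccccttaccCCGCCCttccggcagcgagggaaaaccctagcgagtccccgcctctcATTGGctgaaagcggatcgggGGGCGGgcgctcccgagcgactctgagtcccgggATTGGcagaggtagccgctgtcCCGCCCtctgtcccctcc

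Insig1: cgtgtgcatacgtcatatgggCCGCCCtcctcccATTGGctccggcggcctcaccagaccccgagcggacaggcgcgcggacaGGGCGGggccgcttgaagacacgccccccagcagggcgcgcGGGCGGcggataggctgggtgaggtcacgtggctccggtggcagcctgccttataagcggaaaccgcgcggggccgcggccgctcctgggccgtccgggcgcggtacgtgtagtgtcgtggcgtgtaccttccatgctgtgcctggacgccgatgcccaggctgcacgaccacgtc

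Lss: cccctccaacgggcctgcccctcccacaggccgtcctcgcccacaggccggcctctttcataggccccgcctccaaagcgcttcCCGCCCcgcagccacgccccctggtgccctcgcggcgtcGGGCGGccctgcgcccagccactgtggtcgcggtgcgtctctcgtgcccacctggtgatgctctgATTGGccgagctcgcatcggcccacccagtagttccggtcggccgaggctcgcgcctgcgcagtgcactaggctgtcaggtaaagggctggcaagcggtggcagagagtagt

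Dhcr7: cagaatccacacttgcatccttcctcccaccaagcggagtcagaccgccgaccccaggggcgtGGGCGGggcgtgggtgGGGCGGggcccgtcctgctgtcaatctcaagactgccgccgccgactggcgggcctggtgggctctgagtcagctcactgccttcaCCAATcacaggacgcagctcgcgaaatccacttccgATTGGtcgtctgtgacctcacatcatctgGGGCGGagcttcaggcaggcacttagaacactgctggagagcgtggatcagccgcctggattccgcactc

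The Hmgcs1 window alone among the 6 genes held an exact match to TCACNCCAC, as TCACCCCAC at positions -137 to -129 from the start. Of all 27025 genes with a promoter window, 1.44% held such a match. Other forms of the sterol response motif were not searched for, so the other windows may hold them. CCAAT was found in all 6 genes and in 41.1% of all genes, and GGGCGG in all 6 and in 38.2%. A match is a description of letters and not a bound site, and no binding was measured.

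No member passed the test of Cdh1 against control. Of the 11 probes 0 passed the threshold (limma, Benjamini-Hochberg adjusted p of 1 for each), against 0% of all 32568 probes tested. At an unadjusted p under 0.05 there were 0 of the 11 probes and 561 of all probes. The differences ranged from -0.09 for Srebf2 to 0.15 for Idi1 on the log2 scale. Over the brightest probe of each gene the median was 0.0288, against -0.0041 over all probes tested. It was 0.0548 in set 1 and 0.00496 in set 2, and with each array centred on its own median it turned to -0.0153. Of the 11 probes, 5 were higher with Cdh1 in both sets, where 25.7% of all probes were, and 2 were lower in both, where 27.2% were. In 0 of the 11 did both Cdh1 arrays lie above both control arrays, as they did for 9.76% of all probes. For 10 of the 11 the difference between the sets fixed this outcome, as both arrays of set 2 lay below both arrays of set 1. The count therefore says nothing about Cdh1 for those probes. With the set as a replicate block, again 0 of the 11 and 0% of all probes passed, and the lowest adjusted p among the members was 0.791.

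Between the culture sets the members were displaced in 1 direction. All 11 probes were lower in set 2 than in set 1, by -0.14 to -0.58, and in 10 of them both arrays of set 2 lay below both arrays of set 1. The latter was so for 34.9% of all 32955 probes tested. At an adjusted p under 0.05 (limma), 6 probes of 4 genes (Fdft1, Lss, Dhcr7 and Insig1) fell in set 2, whereas 8.64% of all probes did, and 6.82% rose. The median over the brightest probes was -0.348, against -0.0012 over all probes, and it was -0.324 within the control arrays and -0.411 within the Cdh1 arrays. Over all probes tested the differences had a standard deviation of 0.46, and 12.1% of them were at or below -0.348. A set here holds 1 control and 1 Cdh1 array, so its spread includes any effect of the protein. With treatment as a block 0 of the 11 probes passed, at adjusted p from 0.0513 to 0.413, and 3.79% of all probes were called lower. With any 1 of the 4 arrays left out, a set holds a lone array, and the median over the brightest probes lay between -0.386 and -0.332. The plot of levels by array shows the step between the sets for each gene.

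**Figure D1:**
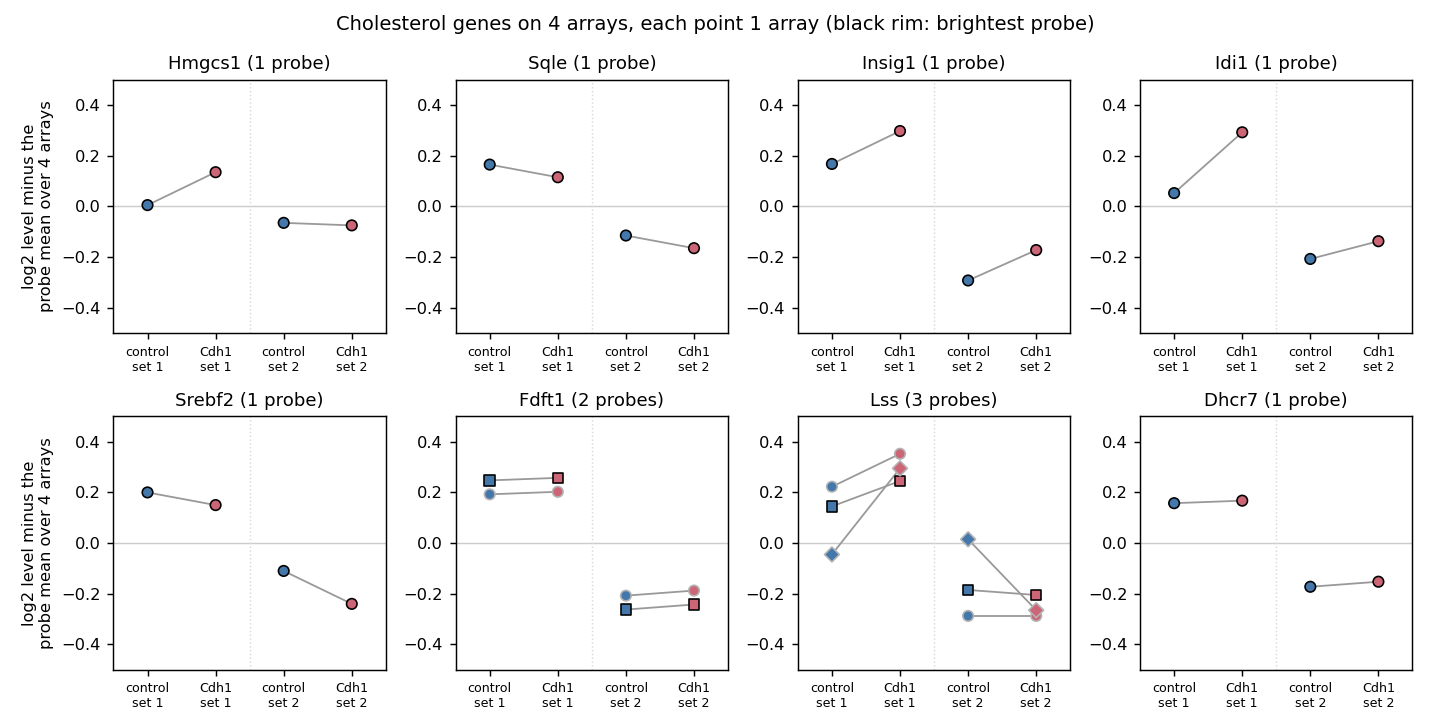
Levels of the 11 probes on the 4 arrays, as log2 level minus the mean of that probe over the arrays, 1 panel per gene, with blue for control, red for Cdh1 and grey lines joining the 2 arrays of a set. In every gene the brightest probe (black rim) lies lower on both arrays of set 2 than on both arrays of set 1, and the lines within a set are short for most probes.

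An enzyme early in the route had the smallest difference between the sets among the 11 probes. Hmgcs1 (NM_145942) encodes cytosolic HMG-CoA synthase, which makes the precursor of mevalonate. Its level was 3.59 in control and 3.72 in Cdh1 of set 1, and 3.52 in control and 3.51 in Cdh1 of set 2. The array with Cdh1 in set 1 stood above the other 3, and the sets did not overlap. Set 2 minus set 1 gave -0.14 (SE 0.07) at a limma adjusted p of 0.241. Cdh1 minus control was 0.13 in set 1 and -0.01 in set 2, a mean of 0.06 with an SE of 0.13.

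Idi1 (NM_145360) encodes isopentenyl diphosphate isomerase, which supplies the reactive isoprenoid for chain building. Its level was 2.08 in control and 2.32 in Cdh1 of set 1, and 1.82 and 1.89 in set 2. The Cdh1 array was the higher of the pair in each set, by 0.24 and 0.06, but the highest array of set 2 remained below the lowest of set 1. The mean difference for Cdh1, 0.15 with an SE of 0.20, was the largest among the members and did not pass (limma adjusted p 1). Set 2 was lower by a difference of -0.34 with an SE of 0.10, at an adjusted p of 0.104.

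Fdft1 and Sqle act at squalene, where the route commits to sterols. Fdft1 (NM_010191) encodes squalene synthase, and its brightest probe read 3.04 in control and 3.05 in Cdh1 of set 1, then 2.53 and 2.55 in set 2. Both treatments thus gave nearly the same level within a set, while the sets were separate. The gene fell in set 2 by 0.50 with an SE of 0.05, 1.42-fold on the linear scale, with a limma adjusted p of 0.0174, the lowest of the 11 probes. This probe lies in row 383, at the edge of the array. The other Fdft1 probe, in row 178, gave -0.39 with an SE of 0.05 (adjusted p 0.0262). Sqle (NM_009270) encodes squalene epoxidase, the oxygen-requiring step after squalene synthase. Its levels were 4.31 and 4.26 in control and Cdh1 of set 1 and 4.03 and 3.98 in set 2. The sets did not overlap, and the difference of -0.28 with an SE of 0.06 missed the threshold at an adjusted p of 0.0549.

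Lss and Dhcr7 act on the sterol rings. Lss (NM_146006) encodes lanosterol synthase, which closes them, and its brightest probe read 1.38 in control and 1.48 in Cdh1 of set 1, then 1.05 and 1.03 in set 2. The gene fell in set 2 by 0.39 with an SE of 0.06 (limma adjusted p 0.0362). A further probe, in row 39, fell by 0.58 with an SE of 0.07 (adjusted p 0.0217), from -0.17 and -0.04 to -0.68 on both arrays of set 2. The third probe disagreed. In row 379, it read -0.60 in control and -0.26 in Cdh1 of set 1, and -0.54 and -0.82 in set 2, so its sets overlapped and its difference of -0.25 had an SE of 0.17 (adjusted p 0.34). Dhcr7 (NM_007856) encodes 7-dehydrocholesterol reductase, which completes cholesterol from its last precursor in that branch. Its levels were 0.02 in control and 0.03 in Cdh1 of set 1, and -0.31 and -0.29 in set 2, and the fall of 0.33 (SE 0.05) passed at an adjusted p of 0.0349. With median centring of the arrays, Dhcr7 and the brightest Lss probe no longer passed, at adjusted p of 0.0651 and 0.054.

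In the regulators, too, both arrays of set 2 lay below both arrays of set 1. Insig1 (NM_153526), the endoplasmic reticulum protein that retains SREBP, had levels of -0.78 in control and -0.65 in Cdh1 of set 1 and of -1.24 and -1.12 in set 2. It fell in set 2 by 0.46 with an SE of 0.08 (limma adjusted p 0.0426). The Cdh1 array was the higher by 0.13 in each set, a mean difference with an SE of 0.25, and an SE of 0.06 and an adjusted p of 0.791 once the set was a block. Insig1 had only the probe in row 372. Srebf2 (NM_033218) had levels of 0.44 and 0.39 in control and Cdh1 of set 1 and of 0.13 and 0.00 in set 2. Its difference between the sets was -0.36 with an SE of 0.07 and missed the threshold at an adjusted p of 0.0534.

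**Figure D2:**
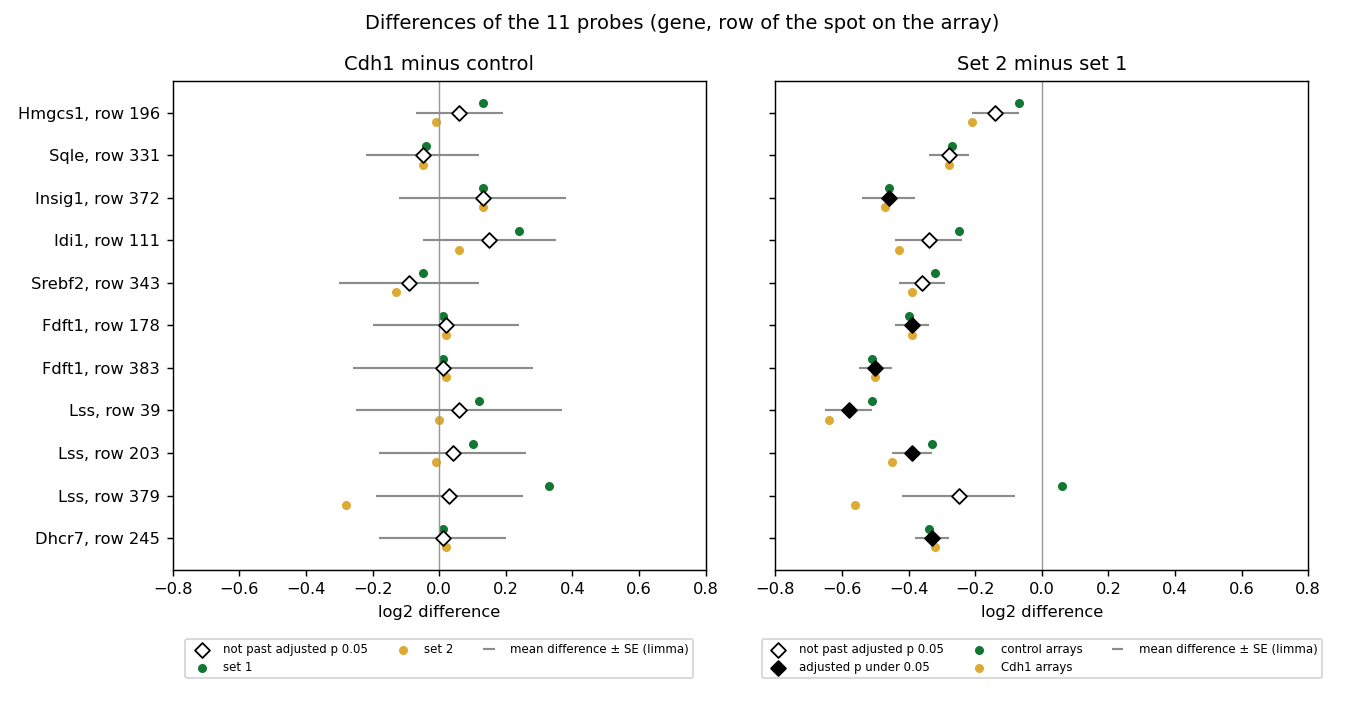
Log2 differences of the 11 probes for Cdh1 minus control (left) and set 2 minus set 1 (right). Diamonds with bars are means ± SE from limma, filled where the adjusted p is under 0.05, and green and yellow points are the pair of single-array differences behind each mean. The left diamonds lie between -0.09 and 0.15 and are all open, while the 11 right diamonds lie below 0 and 6 are filled.

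The precision of the Cdh1 comparison can be read from its intervals. With the set as a block, the 95% interval of the Cdh1 difference ran from -0.18 to 0.20 for Dhcr7 and for the brightest probe of Fdft1, and from -0.24 to 0.14 for Sqle. For Srebf2 it ran from -0.29 to 0.11, for Hmgcs1 from -0.16 to 0.29, for Insig1 from -0.06 to 0.32 and for Idi1 from -0.10 to 0.40. For the brightest probe of Lss it ran from -0.17 to 0.26. The Lss probe in row 39 gave -0.16 to 0.28, and the one in row 379 gave a wider -0.57 to 0.63. Without the block the set difference enters the spread, and the interval of Fdft1 widened to -0.75 to 0.77. These intervals are not adjusted for the number of probes tested and are no detection limit.

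Position on the array differed between the probes. The last 24 rows (361 to 384) held 3 of the 11 member probes, those of Insig1, the brightest of Fdft1 and the discordant one of Lss. Of the probes in these rows that every array had well above background, 2.53% differed by 2-fold or more between the cultures of set 1 and 2.06% between those of set 2. The shares in the other rows were 0.179% and 0.265%. For the set comparison the shares called lower were 7.84% there and 8.16% elsewhere. Without these rows 4 of the remaining 8 member probes passed, of Dhcr7, Fdft1 and Lss, where 9.05% of all probes were called lower.

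The other genes of the pathway were read from 6 lists, which are not complete and were written with earlier results of these data known. They held 53 genes, 52 of them with a probe. In the comparison of Cdh1 with control 0 of the 51 tested genes passed (limma, lowest adjusted p 1). List medians ranged from -0.0495 for the isoprenoid branch to 0.0256 for sterol efflux and LXR genes. The largest differences in each list were 0.12 for Hsd17b7, -0.07 for Insig2, 0.08 for Osbp, 0.11 for Nr1h3, 0.09 for Fasn and -0.11 for Ggps1, each with an adjusted p of 1. In the set comparison 17 of the 51 passed, 16 of them lower and 1 higher in set 2, beside 8.64% of all probes called lower and 6.82% called higher. With treatment as a block 8 passed, all lower, beside 3.79% of all probes.

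Sterol synthesis enzymes outside the 8 members were mostly lower in set 2 as well. Of 13 tested, 7 fell and 0 rose, beside 8.64% of all probes called lower and 6.82% called higher. The median was -0.411 against -0.0012 over all probes. In both treatments 12 were lower, but the share of all probes for which this held was not computed. Hsd17b7, a ketosteroid reductase of the C4 demethylation, read 1.51 in control and 1.60 in Cdh1 of set 1 and 0.65 and 0.80 in set 2, a fall of 0.83 with an SE of 0.08 (limma adjusted p 0.016). Tm7sf2, a sterol C14 reductase, fell by 0.78 and Msmo1, the C4 methyl oxidase, fell by 0.74, from 4.86 and 4.90 in set 1 to 4.13 and 4.15 in set 2. With treatment as a block these 3 genes passed, at limma adjusted p of 0.0397, 0.0437 and 0.0415, and 4 of the 13 passed in all. The remaining 4 that fell without the block, named after their values were seen, were Fdps (-0.69), Sc5d (-0.51), Cyp51 (-0.49) and Nsdhl (-0.41). Not every enzyme shared this: Mvk, which phosphorylates mevalonate, gave 0.05 (adjusted p 0.564) and Ebp, a sterol isomerase, gave -0.05 (adjusted p 0.57), both singled out after their values were seen.

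SREBP processing genes gave 1 call among 8, near the 8.64% of all probes called lower, and 0 with treatment as a block. Insig2, the paralog of Insig1, read 3.78 in control and 3.59 in Cdh1 of set 1 and 2.97 and 3.02 in set 2, a fall of 0.69 with an SE of 0.09 (limma adjusted p 0.0236, and 0.0557 with the block). The other 7 did not pass, and Scap and Srebf1, singled out for their roles, gave differences of -0.06 and 0.00. The median of the list was -0.115.

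Genes of sterol uptake and handling held the largest difference of any list. Vldlr, a lipoprotein receptor of the same family as the LDL receptor, read -0.90 in control and -1.01 in Cdh1 of set 1 and -3.28 and -3.04 in set 2. The gene fell by 2.21 with an SE of 0.11, which was 4.63-fold on the linear scale, with a limma adjusted p of 0.00724 and of 0.0364 with treatment as a block. Soat1, which esterifies cholesterol for storage, fell by 0.58, and Stard4, a cytosolic sterol carrier, fell by 0.49. With treatment as a block Soat1 passed (adjusted p 0.0469) and Stard4 did not (0.0593). Lipa, the lysosomal lipase that frees cholesterol from taken-up esters and named after its values were seen, fell by 0.46. Of 9 tested, 4 fell and 0 rose, beside 8.64% of all probes called lower and 6.82% called higher. Scarb1, a lipoprotein receptor of another family, also named after its values were seen, gave 0.08 with an adjusted p of 0.317.

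Efflux, fatty acid and isoprenoid genes were read in the same way, beside 8.64% of all probes called lower and 6.82% called higher. Abca1, which exports cholesterol to lipoprotein particles, fell by 0.96 with an SE of 0.07 (limma adjusted p 0.0103), from 0.20 and 0.18 in set 1 to -0.82 and -0.71 in set 2. The list of sterol efflux and LXR genes had 4 tested, Nr1h2, Nr1h3, Abca1 and Mylip, and Abca1 alone passed. Abcg1, of the same list, was not well above background on any array. Of 10 fatty acid genes 3 fell, namely Me1 (-0.74), Scd1 (-0.53) and Acaca (-0.41), and 1 rose, Acss2, a cytosolic acetyl-CoA synthetase, at 0.40 with an SE of 0.07 (adjusted p 0.0397). With treatment as a block Acss2, Scd1 and Acaca no longer passed (adjusted p 0.082, 0.0511 and 0.0659), while Abca1 and Me1 did (0.0397 and 0.0435). Of 7 isoprenoid branch genes, which divert the route to protein prenylation, dolichol and ubiquinone, 0 passed, with a median of 0.00564. Its largest difference was -0.27 for Dhdds (adjusted p 0.0693).

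**Figure D3:**
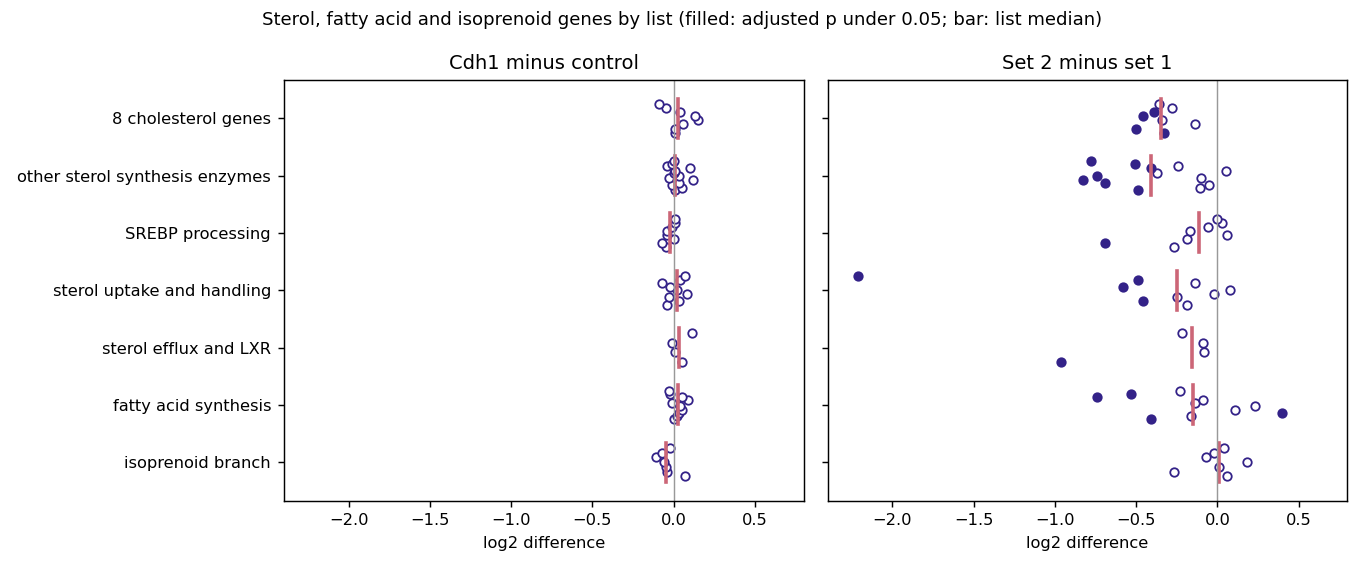
Log2 differences of the brightest probe of each tested gene by list, for Cdh1 minus control (left) and set 2 minus set 1 (right), each point 1 gene, filled where the limma adjusted p is under 0.05, with red bars at the list medians. On the left no point is filled and all lie between -0.11 and 0.15, while on the right the filled points lie below 0 except Acss2 at 0.40.

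Markers of cell identity were compared between the sets in the same way. Of the 5 melanocyte genes, 4 were lower in set 2 and 1, Sox10, was higher (0.20, limma adjusted p 0.0858). Pmel alone passed (-0.42, adjusted p 0.028). The summed level of the list on the log2 scale was 10.53 and 10.49 in set 1 and 10.31 on both arrays of set 2. Of the 5 fibroblast genes 3 were tested, and Col1a1 (-1.22) and Pdgfra (-0.41) passed, beside 8.64% of all probes called lower. Both had low levels, from -5.09 to -3.68 for Col1a1 and from -4.83 to -4.34 for Pdgfra. The summed level of the list was 1.82 and 1.73 in set 1 and 1.48 and 1.40 in set 2, nearly all of it from Col1a2, which did not pass (-0.32, adjusted p 0.0556), with Col3a1 and Lum not well above background on any array. The leukocyte and epithelial lists had 2 tested genes each, and 0 passed. The part of these markers in the difference of the cholesterol genes was not tested, and fewer cells of a kind and less RNA per cell cannot be told apart here.

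Genes with a pattern most like that of the 8 members were sought among 8968 others. The mean profile of the members, each centred on its own mean, was 0.14 in control and 0.21 in Cdh1 of set 1 and -0.18 and -0.17 in set 2. The closest by root mean square difference over the 4 arrays were Fam214a (0.00759), Dhx38 (0.00891) and Arid5b (0.0126). Among the members themselves Dhcr7 (0.0237) and Lss (0.024) lay closest to that mean and Hmgcs1 (0.108) farthest.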

How the data were processed

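Per the file headers, Agilent Feature Extraction 12.0.3.1 made the spot values. The deposited processed intensity is background-subtracted and detrended within the array and was not normalized between arrays. The authors' deposited value table equalled that intensity times 1 factor per array (0.8735 to 0.9304).

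From the scanner files, log2 processed intensity minus the 75th percentile of non-control spots was averaged over the spots of a probe, without outlier spots (115 to 143 per array). A probe was tested if both arrays of any group (or set) had it well above background. The test was limma 3.58.1 in R 4.3.3 (lmFit, eBayes, all 4 arrays, no block), with Benjamini-Hochberg adjustment over all tested probes at 0.05. The fit was also run on simulated arrays without a set difference and with changes larger than those of the members. That run therefore says nothing about differences of the size seen here. p-values measure the spread between these cultures. In the set comparison this is the spread between the control and the Cdh1 culture of a set, not between repeats of a set. Probes were named by RefSeq accession from a GRCm38.p6 table, which named 33767 (59.65%) of 56605; the array design is on mm9, so no gene coordinates were used. A gene was read from its brightest probe, and all member probes are given. The numbers of the sets pair the cultures by the series' design text, and deviations from the group means correlated at 0.744 between arrays of the same set, across 31155 probes. Named pathway genes were, for each list and comparison, up to 3 past the threshold per direction, or else the largest difference. The members and lists were chosen with earlier results of these data known. Alternatives are given at the end. Python 3.11.15 with pandas 2.3.3 and matplotlib 3.10.9 was also used.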

Additional observations from a re-analysis of the deposited data

Results flagged for a closer look

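The Lss probe in row 379 moved in opposite directions in the 2 treatments. Its set 2 minus set 1 difference was 0.06 in the control arrays and -0.56 in the Cdh1 arrays, and the difference between these was not tested. The other Lss probes gave -0.51 and -0.64 (row 39) and -0.33 and -0.45 (row 203) in control and Cdh1 arrays.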

How the results depend on the processing

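Cdh1 against control gave 0 called probes, 0 called members and 0 called pathway genes under every alternative that was run for them: other normalizations, the authors' table, other filters, outlier spots kept, no last 24 rows, each array left out and the set number as a replicate block (0 called, lowest adjusted p among members 0.791). Their median difference turned to -0.0153 with median centring and ranged from -0.163 to 0.219 with 1 array left out, since the sets are then unequal between the groups. Of 110 single-gene values, 17 changed sign. With median centring these were Dhcr7 (-0.03), Fdft1 (-0.03) and Lss (0.00). With 1 array left out the ranges were Dhcr7 -0.15 to 0.18, Fdft1 -0.24 to 0.27, Hmgcs1 -0.04 to 0.17, Idi1 -0.06 to 0.37, Insig1 -0.11 to 0.36, Lss -0.18 to 0.27, Sqle -0.19 to 0.09 and Srebf2 -0.29 to 0.11.

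Between the sets, the member median stayed between -0.386 and -0.299 under every alternative run. The 6 called member probes became 0 without the filter on dim probes, 0 with treatment as a block, and with an array removed 0 to 0. The 17 pathway genes became 0 without the filter, 8 with treatment as a block, and with an array removed 0 to 1. Over all probes, 5095 calls became 9032 with normexp and quantile normalization, 0 without the filter, 2165 with treatment as a block, and with an array removed 0 to 706. Removing arrays leaves fewer residual degrees of freedom, and a lone array is assumed to vary like the others. The cause of the other changes was not tested. All 110 single-gene set differences kept their direction, 28 lost and 5 gained the threshold.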
